A study of Mus musculus with 238 samples.

Results

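Homeostatic microglia genes are the transcripts by which resting microglia, the resident macrophages of the brain, are usually recognised. The set held 6 of the 21076 gene rows of the count table, chosen by name and not by any measured value: Cx3cr1, P2ry12, Tmem119, Csf1r, Siglech and Aif1. RNA was measured by bulk mRNA sequencing of 15 dissected brain regions and of liver in C57BL/6JN mice that were all 19 months old. The diet experiment held females, 5 dietary restricted mice (aDR, written DR on their liver libraries) and 4 mice fed freely (AL). The plasma experiment held males, 3 mice that received young mouse plasma (YMP) behind the eye and 4 that received PBS, a buffered saline. No genetic change separated the groups. Sex and experiment were the same division of the mice and cannot be told apart. Each mouse gave at most 1 library per region, so every replicate was a separate animal. There were 131 brain libraries from the diet experiment, 98 from the plasma experiment and 9 from liver.

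Microglia survey the brain with moving processes, clear debris and synapses, and depend on signals from neurons and glia to keep their resting state. When they respond to injury, myelin loss or ageing they can lower these resting-state genes and raise another set, the disease-associated genes. In whole-tissue RNA a lower level of a microglial gene can come from fewer microglia or from less of the transcript in each, and the 2 cannot be told apart here.

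The set has 3 surface receptors for signals from other cells. Cx3cr1 binds fractalkine (Cx3cl1), which neurons make. P2ry12 senses ADP and steers microglial processes towards damage. Csf1r binds Csf1 and Il34, and microglia need it to survive. The other 3 are Tmem119, Siglech and Aif1. Tmem119 is a membrane protein that sets microglia apart from other macrophages. Siglech encodes a member of the Siglec family of lectins and is also made by plasmacytoid dendritic cells. Aif1 encodes the actin-bundling protein Iba1 and is made by macrophages in general.

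Promoters of P2ry12 and Aif1 are shown because the regional profiles of these 2 genes were the least alike of any pair in the set (Pearson's r = 0.38 over 30 region means). The RefSeq promoter table (GRCm38.p6), which runs from 250 bases before to 50 bases after each annotated start, held 4 of the 6 genes. Tmem119 and Csf1r were not among them. Capitals mark a match to GAGGAA or AGGAAG, searched on both strands, the core letters of sites bound by PU.1 (Spi1), a factor that macrophages and microglia need to form. The window of P2ry12 is chr3:59262936-59263235, minus strand, and that of Aif1 is chr17:35176003-35176302, minus strand.
P2ry12: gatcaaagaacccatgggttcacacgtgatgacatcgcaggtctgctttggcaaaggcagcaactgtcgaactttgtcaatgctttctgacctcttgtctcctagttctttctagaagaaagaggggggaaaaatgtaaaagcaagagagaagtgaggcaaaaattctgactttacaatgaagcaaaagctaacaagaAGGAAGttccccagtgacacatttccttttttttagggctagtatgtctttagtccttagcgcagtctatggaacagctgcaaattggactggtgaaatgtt
Aif1: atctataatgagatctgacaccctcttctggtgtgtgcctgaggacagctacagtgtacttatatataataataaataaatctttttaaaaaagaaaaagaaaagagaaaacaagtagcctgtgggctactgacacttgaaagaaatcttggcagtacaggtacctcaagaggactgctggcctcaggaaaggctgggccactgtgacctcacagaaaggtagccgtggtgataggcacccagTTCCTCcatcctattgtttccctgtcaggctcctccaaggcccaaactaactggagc
P2ry12 held AGGAAG at base 199 of its window, 52 bases before the start. Aif1 held GAGGAA on the other strand at base 244, 7 bases before the start, and Siglech held it on the other strand at base 247, 4 bases before the start. The window of Cx3cr1 held neither. GAGGAA was found in 28.3% and AGGAAG in 35.4% of all 32851 promoter windows of the same length, so a match describes the letters and does not set these genes apart.

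The libraries held 0.606 to 32.4 M counts each (M, the SI prefix mega), 8.44 M at the median, and 6 libraries held under 2 M. Of 48 marker genes of the labelled tissues, 42 had their labelled tissue among the 3 highest of 16. The libraries labelled choroid plexus stood apart from their label: they carried neuron markers at the level of other brain regions (10 genes summed, 9026 to 11358 CPM in AL, against 6447 to 7382 CPM in AL caudate putamen), and their summed choroid plexus markers (1222 to 14872 CPM in AL) were exceeded by some corpus callosum libraries (7848 to 30106 CPM in PBS). In brain, all 6 genes had counts in all 229 libraries except Aif1 in the smallest one, the olfactory bulb of YMP mouse 73, where 0 counts of 0.606 M allow a level of up to 4.95 CPM (3 counts; CPM, counts per M counts of the library; counting error only). In all, 7 brain libraries stood apart, 6 of them by a total under 2 M and 1 by having 23.4% of its counts in 10 genes. The lowest level of P2ry12 in any brain library, 9.56 CPM, was in the last of these, the pons of aDR mouse 67. The main brain tests that held such libraries were also run without them. Levels, region orders, correlations and marker sums, which are descriptions, were not recomputed without them.

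On GRCm38 (GENCODE vM21) all 6 are protein-coding. Cx3cr1 lies on chromosome 9 at 119901616-120069879 (minus strand), P2ry12 on chromosome 3 at 59216272-59262871 (minus), and Csf1r on chromosome 18 at 61100598-61132149 (plus). Tmem119 lies on chromosome 5 at 113793729-113800516 (minus), Siglech on chromosome 7 at 55768178-55778925 (plus), and Aif1 on chromosome 17 at 35170991-35176068 (minus). The libraries carried no strand, so reads of a gene and of an overlapping gene on the other strand cannot be told apart where the 2 overlap. All 2546 exon bases of P2ry12 lie inside Med12l on the other strand. Of the exon bases of Csf1r, 873 lie inside Hmgxb3, and of those of Cx3cr1, 12 lie inside Wdr48, also on the other strand. These overlaps are with the whole span of the other gene, introns included. Overlap with its exons was not computed.

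Over the 229 brain libraries Csf1r ran from 49.6 to 175.0 CPM (median 99.1), Cx3cr1 from 25.9 to 120.3 (61.5), P2ry12 from 9.56 to 85.1 (49.8), Tmem119 from 12.7 to 62.5 (35.1), Siglech from 2.94 to 26.3 (16.7) and Aif1 from 0 to 19.6 (8.74). Per kb of exon, the scale on which genes can be compared, P2ry12 was the highest with a mean of 19.97 ± 6.13 CPM per kb (SD over 229 libraries) and Csf1r next with 17.8 ± 4.16. Tmem119 and Cx3cr1 had 15.4 ± 4.02 and 14.6 ± 4.07 CPM per kb, and Aif1 and Siglech had 6.04 ± 2.11 and 4.99 ± 1.33. Siglech and Aif1 were therefore counted from the fewest reads, a median of 137 and 74 counts per library against 854 for Csf1r.

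Caudate putamen, the dorsal striatum, carried the most of these transcripts and cerebellum the least. Cx3cr1 was at 85.5, 119.8, 83.9 and 117 CPM in the caudate putamen of the 4 AL mice and at 46, 37.5, 44 and 32.4 in their cerebellum. In PBS mice it was at 92.6, 120.3, 99.999 and 112 CPM in caudate putamen and at 43.1, 31.4 and 34.2 in cerebellum, where only 3 of the 4 mice had a library. No cerebellar library reached the lowest caudate library in either experiment. P2ry12 gave 71, 80.6, 68.4 and 83.2 CPM (AL) and 67.8, 77.6, 75.1 and 76.9 CPM (PBS) in caudate putamen. Its cerebellar values were 20.8, 18.1, 21.9 and 21.3 CPM in AL and 21.8, 20.4 and 21.2 in PBS, again without overlap. Within each of the 7 control mice with both libraries, the caudate level of P2ry12 was between 3.11 and 4.46 times the cerebellar level (median 3.63).

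The other receptor, Csf1r, was at 128, 175, 132 and 159 CPM in AL caudate putamen and 127, 167, 133 and 139.6 in PBS. In cerebellum it was at 60.6, 56.7, 68.7 and 62.6 CPM in AL and 63.8, 49.6 and 57.5 in PBS. Csf1r groups did not overlap, and the ratio within a mouse ran from 1.91 to 3.08. Tmem119 was at 44.2, 44, 42.9 and 55.2 CPM (AL) and 38.6, 59, 49.6 and 43.8 CPM (PBS) in caudate putamen, and at 14.2, 12.9, 22.5 and 17.2 and 16.2, 14.6 and 13.4 CPM in cerebellum. Siglech was at 21.8, 21.3, 21 and 25.5 CPM (AL) and 20.6, 26.3, 26.3 and 24.7 CPM (PBS) in caudate putamen, and at 9.29, 5.66, 9.71 and 7.11 and 10.8, 6.64 and 6.81 CPM in cerebellum. Neither Tmem119 nor Siglech overlapped between these regions. Aif1 was at 9.47, 14.8, 10.1 and 16.6 CPM (AL) and 10.5, 15, 16.8 and 10.4 CPM (PBS) in caudate putamen, and at 9.21, 6.75, 5.74 and 5.54 and 9.39, 5.28 and 4.8 CPM in cerebellum. Its 2 regions came close, and in 1 mouse the ratio was only 1.03.

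**Figure D1:**
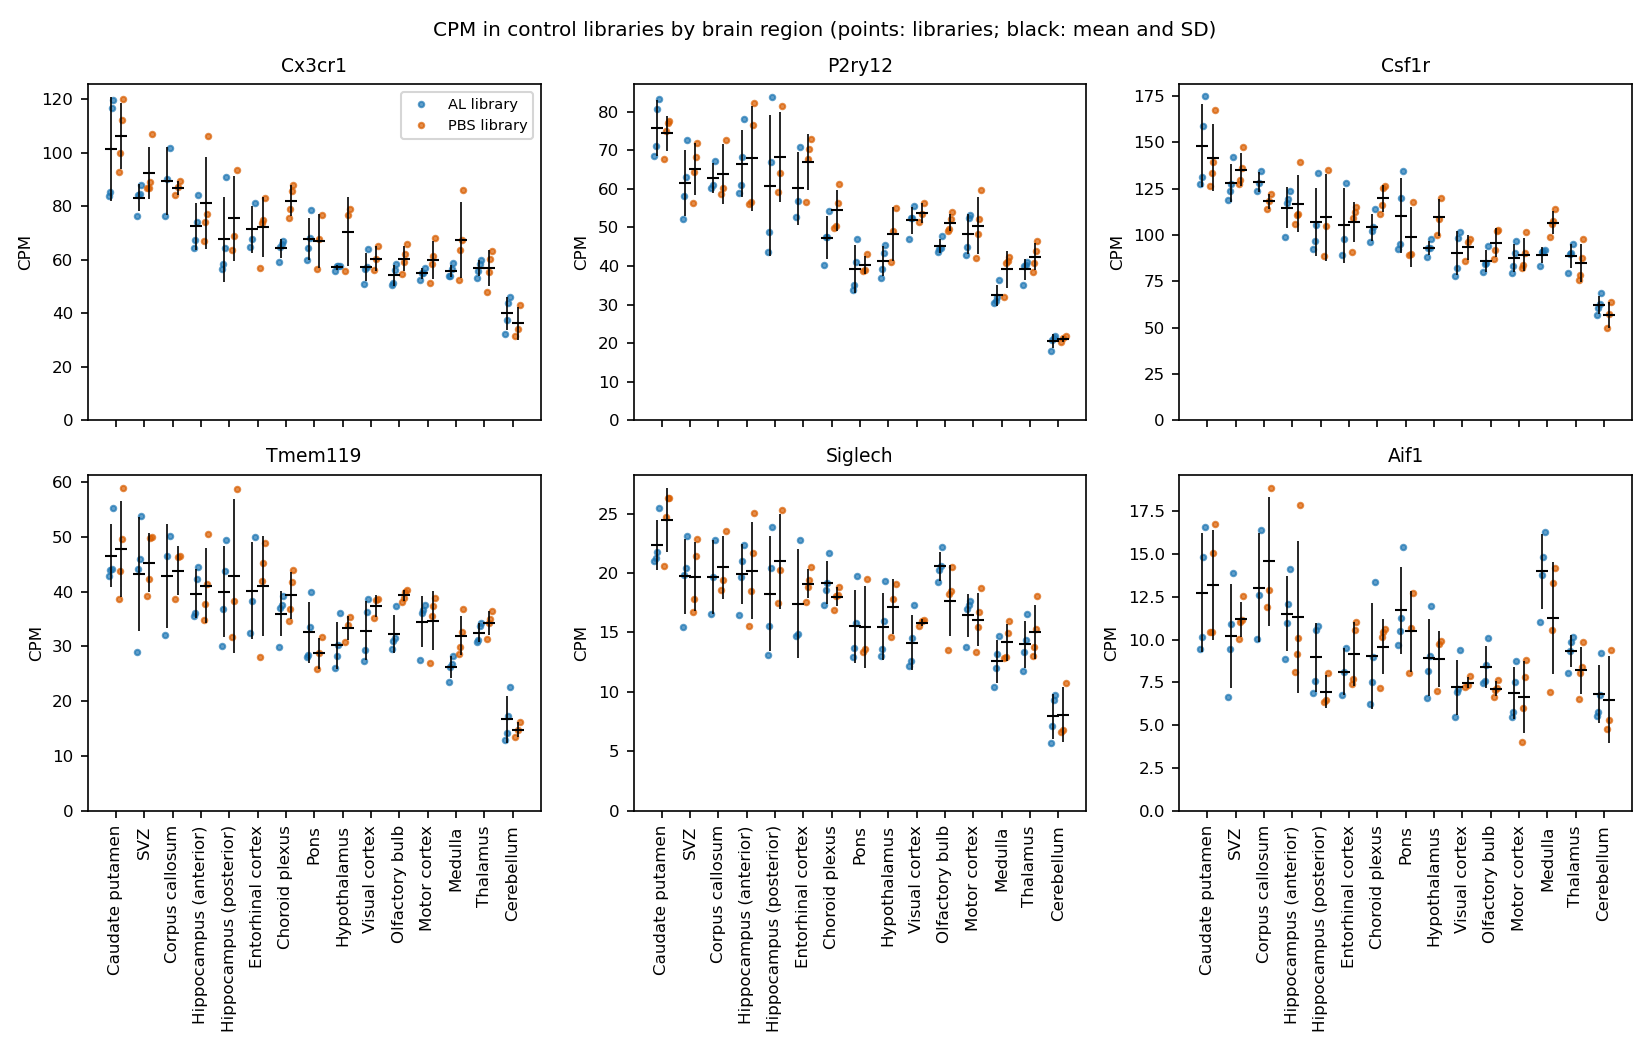
CPM of each gene (vertical axis, linear from 0) in every control library by brain region (horizontal axis, ordered by the mean summed CPM of the 6 genes), with AL in blue and PBS in orange and the mean and SD in black. Caudate putamen is at the left and cerebellum at the right; for P2ry12 the cerebellar means are 20.5 and 21.1 CPM against caudate means of 75.8 and 74.4.

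Each region was compared with the mean of the other 14, separately in AL and in PBS mice, with edgeR's quasi-likelihood test fitted over all genes. A gene was called where its Benjamini-Hochberg adjusted p was under 0.05. All 6 genes passed the filter on low counts in both fits. Of 90 gene by region tests 40 were called in AL and 34 in PBS, 29 of them in both with the same sign (18 higher, 11 lower) and 0 with opposite signs. This was close to the share of all genes, of whose gene by region tests 47.6% were called in AL and 41.3% in PBS, so the number of regional differences did not set the genes apart. The direction was shared: all 6 rose in caudate putamen, where 28.6% of all genes were called higher in AL and 23.2% in PBS, and all 6 fell in cerebellum, where 31.6% and 28.7% were called lower.

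In caudate putamen Cx3cr1 was higher by 0.79 (SE 0.0778, adjusted p = 3.06e-12) in AL and 0.72 (SE 0.0962, adjusted p = 3.45e-08) in PBS, on the log2 scale. P2ry12 was higher by 0.80 (SE 0.086, adjusted p = 4.19e-11) and 0.64 (SE 0.0826, adjusted p = 2.03e-08). Csf1r was higher by 0.69 (SE 0.0721, adjusted p = 1.97e-11) and 0.56 (SE 0.0755, adjusted p = 5.05e-08). Tmem119, Siglech and Aif1 followed with log2 differences of 0.57, 0.57 and 0.53 in AL and 0.51, 0.63 and 0.62 in PBS. The range over the set was therefore narrow in this region, 0.53 to 0.80 in AL and 0.51 to 0.72 in PBS.

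In cerebellum the genes differed more from each other. P2ry12 differed by -1.43 (SE 0.111, adjusted p = 7.75e-16) in AL and -1.47 (SE 0.118, adjusted p = 1.70e-14) in PBS. Tmem119 differed by -1.25 (SE 0.131, adjusted p = 1.19e-11) and -1.46 (SE 0.147, adjusted p = 1.40e-11), and Siglech by -1.24 and -1.22. Cx3cr1 (-0.85 and -1.10) and Csf1r (-0.87 and -1.01) had smaller differences, and Aif1 the smallest (-0.62 and -0.61). Aif1 was the member whose calls in these 2 regions rested on single mice. Its caudate difference in AL was 0.41 (adjusted p = 0.0603) without mouse 66 and 0.41 (adjusted p = 0.052) without mouse 69. Its cerebellar difference in PBS was -0.43 (adjusted p = 0.135) without mouse 80 and -0.47 (adjusted p = 0.0805) without mouse 84. Med12l, which contains P2ry12 on the other strand, had its highest level in cerebellum (33.3 ± 2.99 CPM in AL, SD, n = 4; 39.99 ± 2.40 in PBS, n = 3) and 13.6 ± 2.87 and 12.2 ± 1.84 CPM (n = 4 each) in caudate putamen, the reverse of P2ry12.

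**Figure D2:**
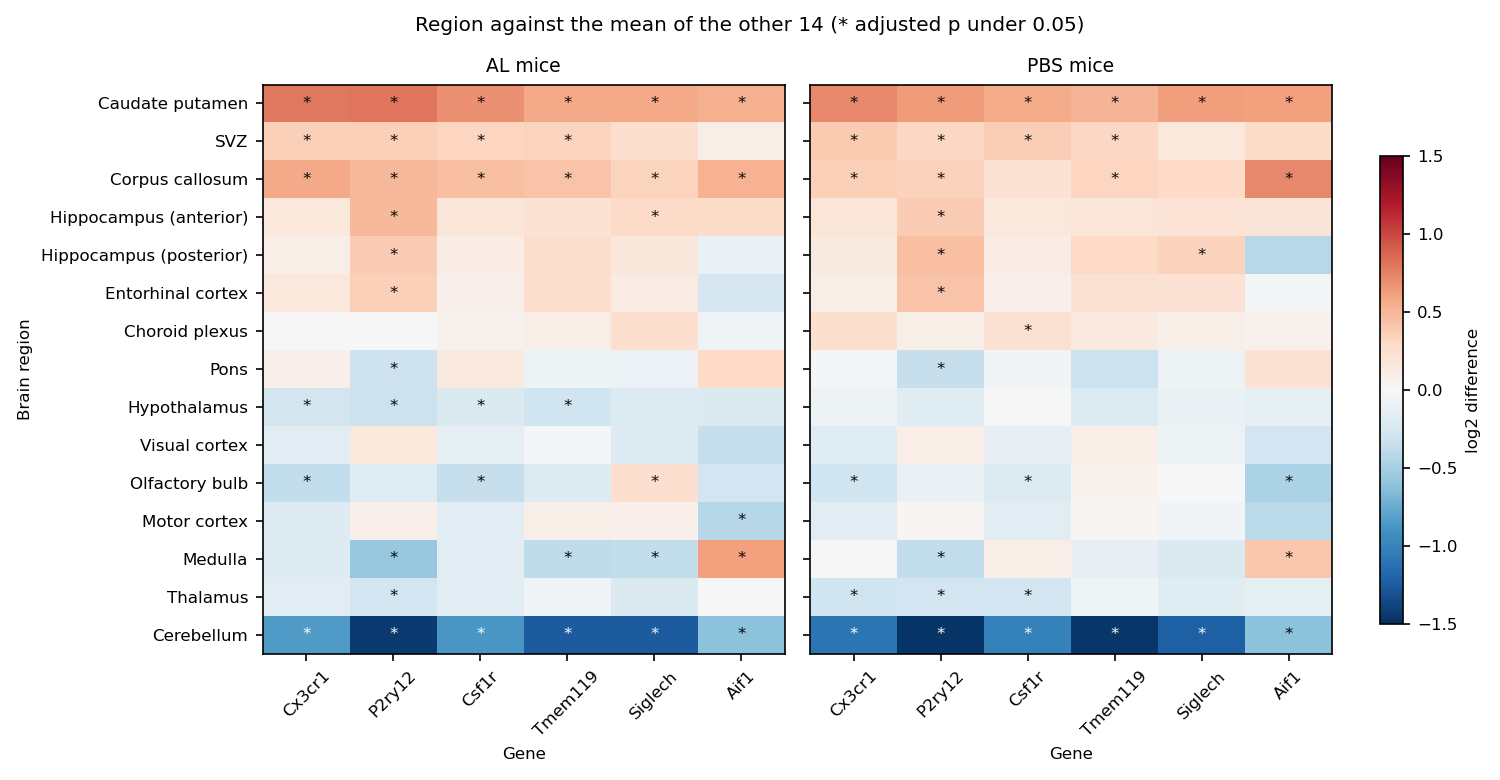
Log2 difference of each region (rows) from the mean of the other 14 for each gene (columns) in AL mice (left) and PBS mice (right), from edgeR; asterisks mark adjusted p under 0.05. Both panels show red across caudate putamen (0.51 to 0.80) and blue across cerebellum (-1.47 to -0.61).

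The whole order of regions was close in both experiments, although the mice differed in sex. Across the 15 regions the mean levels in AL and PBS had a Pearson's r of 0.98 for P2ry12, 0.95 for Tmem119, 0.95 for Siglech, 0.93 for Cx3cr1, 0.91 for Csf1r and 0.87 for Aif1, given as a description. Caudate putamen ranked first in both experiments for every gene but Aif1, and cerebellum ranked last for all 6. Between these ends most neighbours in the order lay closer together than the SD of either region. Of 14 neighbouring pairs, those further apart than the larger SD numbered 4 for P2ry12 in AL and 2 in PBS, 3 and 2 for Csf1r and for Cx3cr1, 1 and 1 for Siglech and for Tmem119, and 0 and 0 for Aif1. For Aif1 the order could not be read, at its ends either. Its mean in cerebellum (6.81 CPM in AL, 6.49 in PBS) was close to that in motor cortex (6.88 and 6.65). Its highest region was medulla in AL and corpus callosum in PBS. The SD between its region means was 0.32 and 0.35 on the log2 scale in AL and PBS. That was close to the median SD among mice within a region (0.30 and 0.28). For P2ry12 the same SDs were 0.47 and 0.45 between regions against 0.14 and 0.15 within.

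Corpus callosum, the main white matter tract, and SVZ were the other regions where 4 of the 6 genes were higher in both experiments. In corpus callosum Cx3cr1 (0.57 in AL, 0.36 in PBS), P2ry12 (0.48 and 0.34), Tmem119 (0.43 and 0.32) and Aif1 (0.52 and 0.72) were higher in both experiments on the log2 scale, beside 41.0% and 36.1% of all genes called in either direction. All choroid plexus and oligodendrocyte markers tested were also higher in corpus callosum in both experiments. Their part in the members' values was not tested. The calls of the 4 members rested on 3 corpus callosum libraries per experiment. All 4 genes lost theirs in at least 1 experiment when a single mouse was left out. In PBS, Cx3cr1 lost its call without mouse 76, 80 or 84 (adjusted p of 0.0570, 0.0643 and 0.0569), Tmem119 without any of the same 3 (0.0667, 0.147 and 0.135), P2ry12 without mouse 80 or 84 (0.116 and 0.0508) and Aif1 without mouse 80 (0.0639). In AL, Tmem119 lost it without mouse 63 or 69 (0.122 and 0.140) and Aif1 without the same mice (0.297 and 0.0640). In SVZ, Cx3cr1 was higher by 0.35 (SE 0.082, adjusted p = 5.03e-04) in AL and 0.39 (SE 0.102, adjusted p = 0.00166) in PBS, and Csf1r by 0.33 (SE 0.0752, adjusted p = 4.63e-04) and 0.37 (SE 0.0781, adjusted p = 1.32e-04), and neither call was lost. Of all genes 40.5% and 42.6% were called in SVZ. P2ry12 and Tmem119 were also higher there (0.35 and 0.34 in AL, 0.31 and 0.31 in PBS). Without PBS mouse 84 the adjusted p of P2ry12 was 0.105 and that of Tmem119 0.277, and without AL mouse 63 or 69 that of Tmem119 was 0.134 or 0.0986.

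In 6 further regions P2ry12 passed the test in both experiments, where none of the other 5 genes did so in the same direction; the differences between genes were not tested. P2ry12 was higher in Hippocampus (anterior) by 0.49 (AL) and 0.38 (PBS), in Hippocampus (posterior) by 0.38 and 0.45, and in entorhinal cortex by 0.36 and 0.43. In medulla it was lower, with a difference of -0.57 (SE 0.101, adjusted p = 3.94e-06) in AL and -0.37 (SE 0.0923, adjusted p = 7.75e-04) in PBS. Pons (-0.31 and -0.35) and thalamus (-0.29 and -0.29) were also lower. Of all genes, 34.3% and 15.8% were called in Hippocampus (anterior), 32.8% and 28.8% in Hippocampus (posterior), 39.3% and 42.3% in entorhinal cortex, 62.3% and 56.7% in medulla, 54.4% and 41.0% in pons, and 46.5% and 40.4% in thalamus (AL and PBS, either direction). The medulla values kept their call with each mouse left out in turn. The others did not: the difference was 0.22 (adjusted p = 0.314) in entorhinal cortex without AL mouse 69, 0.26 (adjusted p = 0.0654) and 0.31 (adjusted p = 0.0748) in Hippocampus (anterior) without PBS mouse 76 or 80. In Hippocampus (posterior) it was 0.21 (adjusted p = 0.0962) without AL mouse 68 and 0.27 (adjusted p = 0.0834) without PBS mouse 76. In pons it was -0.26 (adjusted p = 0.071) without AL mouse 63 and -0.34 (adjusted p = 0.0812) without PBS mouse 84, and in thalamus -0.25 (adjusted p = 0.11) without AL mouse 69 and -0.26 (adjusted p = 0.0724) without PBS mouse 84.

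In medulla Aif1 went the other way. It was at 14.8, 13.8, 11 and 16.3 CPM in AL and 13.3, 6.93, 10.6 and 14.2 in PBS, higher than the other regions by 0.62 (SE 0.15, adjusted p = 3.90e-04) and 0.40 (SE 0.158, adjusted p = 0.029) on the log2 scale. P2ry12 was at 30.8, 30.5, 31.8 and 36.4 CPM and 40.8, 31.9, 42.3 and 41.3 in the same libraries, below its level in most regions. The PBS call of Aif1 was lost without mouse 72 (0.34, adjusted p = 0.125) or mouse 84 (0.19, adjusted p = 0.386), while the AL call held. In olfactory bulb Csf1r (-0.35 in AL, -0.20 in PBS) and Cx3cr1 (-0.37 and -0.30) were lower, beside 67.1% and 62.4% of all genes. Without PBS mouse 72, 80 or 84 the adjusted p of Csf1r there was 0.0926, 0.0522 or 0.0510, and without PBS mouse 80 that of Cx3cr1 was 0.0561.

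The balance among the 6 genes therefore changed from region to region. It was expressed, as a description, as each gene's log2 CPM minus the mean of the 6 in the same library, centred on that gene's mean over all AL and PBS brain libraries. P2ry12 stood at -0.39 ± 0.0462 (SD, n = 4) in the medulla of AL mice and -0.28 ± 0.0663 (SD, n = 4) in that of PBS mice, at -0.32 ± 0.0574 (SD, n = 4) and -0.20 ± 0.0982 (SD, n = 3) in pons, and at -0.37 ± 0.104 (SD, n = 4) and -0.26 ± 0.192 (SD, n = 3) in cerebellum. Aif1 stood at 0.78 ± 0.193 (SD, n = 4) and 0.29 ± 0.264 (SD, n = 4) in medulla, at 0.33 ± 0.126 (SD, n = 4) and 0.25 ± 0.171 (SD, n = 3) in pons, and at 0.44 ± 0.316 (SD, n = 4) and 0.42 ± 0.266 (SD, n = 3) in cerebellum. In the hindbrain regions P2ry12 was thus low and Aif1 high relative to the mean of the set. The values of the 6 genes in a library offset each other by construction, so a high Aif1 by itself lowers the others. P2ry12 and Aif1 also had the least alike regional profiles of the set in these same data. In both hippocampal regions, entorhinal, visual and motor cortex P2ry12 was above the set's mean in both experiments. A low place in cerebellum was not particular to P2ry12. In the edgeR differences there, Tmem119 and Siglech also lay below the mean of the 6 (-1.04 in AL and -1.14 in PBS).

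**Figure D3:**
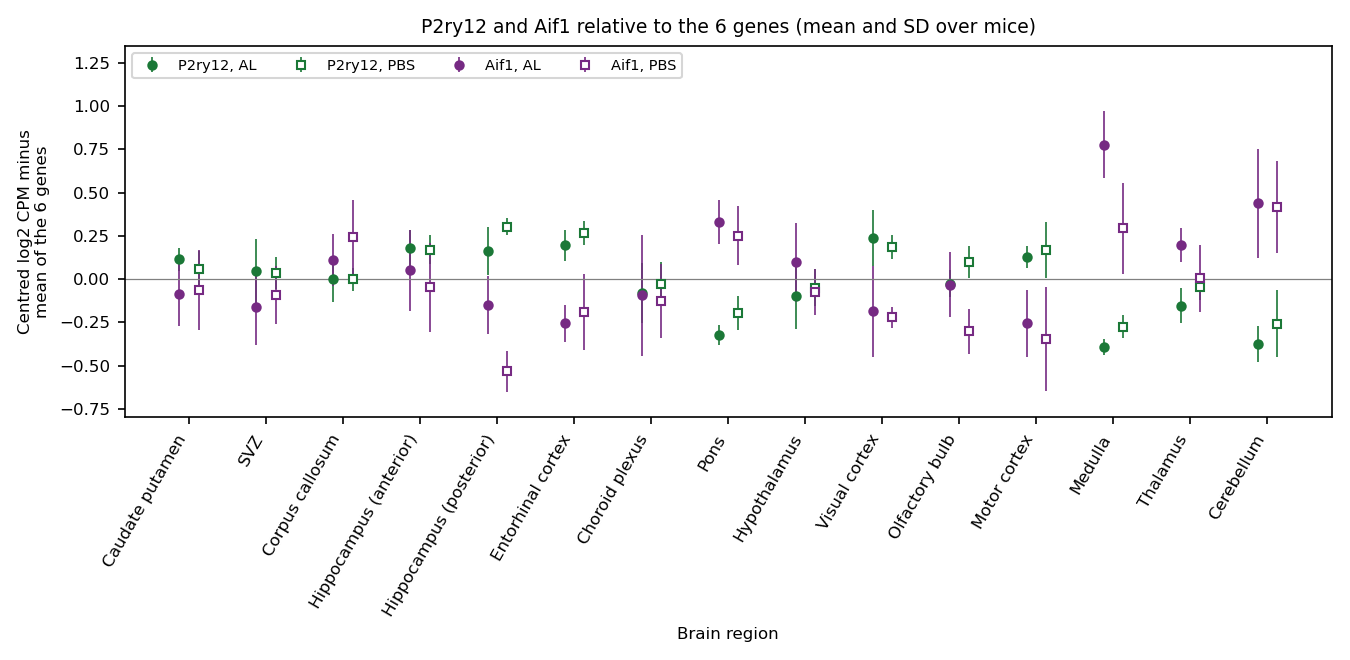
Centred log2 CPM of P2ry12 (green) and Aif1 (purple) minus the mean of the 6 genes in the same library, by brain region, as mean and SD over AL mice (filled circles) and PBS mice (open squares). The pair separates in medulla, pons and cerebellum, where P2ry12 lies between -0.39 and -0.20 and Aif1 between 0.25 and 0.78. The other genes are not drawn.

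Across the 30 region means (15 in AL and 15 in PBS), the pair with the most similar profiles was Cx3cr1 and Csf1r (Pearson's r = 0.99), followed by P2ry12 and Tmem119 (0.96). P2ry12 and Aif1 were the least alike (0.38). The median of the 15 pairs was 0.86. When region and treatment means were removed, the deviations of the 229 libraries had a median r of 0.54 over the same pairs, from 0.17 (P2ry12 and Aif1) to 0.83 (Cx3cr1 and Csf1r). Both values in a pair share a library and its depth, and libraries of a mouse share the animal, so these are descriptions.

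Of 14245 other genes, the 10 with a profile most like the mean of the 6, by Pearson's r over the same 30 points, were led by 3 microglial receptors or receptor ligands: P2ry13 (0.98), a nucleotide receptor related to P2ry12, Selplg (0.95), the selectin ligand PSGL-1, and Gpr34 (0.93), a lysophospholipid receptor. Cst3 (0.93), which encodes cystatin C, Bco2 (0.93), Susd3 (0.92), the cytokine gene Il18 (0.91), the netrin receptor gene Dcc (0.90), Sh3gl3 (0.90) and Mchr1 (0.90), a receptor for melanin-concentrating hormone, completed them. Aif1 itself had an r of only 0.66 with the mean that includes it, whereas the other 5 members had 0.93 to 0.97. The median over a list of 20 other microglia genes was 0.58, over 17 disease-associated genes 0.0058, and over all genes compared -0.093.

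Most other microglial genes were also higher in caudate putamen. Of 20 other microglia genes 19 were called higher and 0 lower in AL (median log2 difference 0.58) and 19 and 0 in PBS (0.63), against a median of -0.02 and -0.03 over all genes. They included Trem2 (0.78 and 0.83), a lipid receptor, and C1qb (0.67 and 0.72), a complement subunit. In cerebellum 13 of the 20 were lower and 1 higher in AL (median -0.48), and 12 lower and 0 higher in PBS (-0.54). Of all genes, 31.6% in AL and 28.7% in PBS were called lower there. Those of the 20 lower in both experiments included Slc2a5 (-2.06 and -2.09), a fructose transporter, and Fcrls (-1.15 and -1.62). The median difference of the 6 members in cerebellum, -1.06 in AL and -1.16 in PBS, was larger than that of the 20.

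Of 5 ligands, 2 were higher in caudate putamen and lower in cerebellum in both experiments. Cx3cl1, the ligand of Cx3cr1, was higher by 1.22 (AL) and 1.13 (PBS) in caudate putamen and lower in cerebellum (-2.72 and -2.84) on the log2 scale. Il34, the ligand of Csf1r that neurons make, was higher by 0.99 and 0.88 in caudate putamen and lower in cerebellum (-2.14 and -2.20). Csf1, the other ligand of Csf1r, passed the test in neither region in either experiment. Tgfb2 was lower in caudate putamen (-1.09 and -1.06). In medulla Cx3cl1 (-1.33 and -1.28) and Il34 (-1.16 and -0.98) were lower and Csf1 was higher (0.67 and 0.65).

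Of 13 tested transcription factors and signalling partners of microglia, 7 were higher and 0 lower in AL caudate putamen and 6 and 0 in PBS. Spi1 (0.81 and 0.65), which encodes PU.1, and Irf8 (0.90 and 0.89), its partner, were among them. In cerebellum 7 were lower and 0 higher in AL, and 8 lower and 1 higher in PBS, with Sall1 (-1.13 and -1.64), a factor of microglial identity, among those lower in both. Of all genes, 31.6% in AL and 28.7% in PBS were called lower in cerebellum. Sall1 and Mef2c are also made by cells other than microglia.

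Disease-associated microglia genes moved in both directions in cerebellum, where 6 of 17 were higher and 3 lower in each experiment, the higher ones including Lgals3 (2.6 and 2.12), Itgax (2.06 and 1.80) and Cst7 (1.18 and 1.66). Of all genes, 31.6% in AL and 28.7% in PBS were called lower in cerebellum. The share called higher there is not reported here, so these counts do not set the list apart. In medulla, where P2ry12 was lower and Aif1 higher, 15 of 17 were higher and 0 lower in AL (median 0.82) and 12 and 0 in PBS (median 0.63). Of all genes, 62.3% were called in medulla in AL and 56.7% in PBS, in either direction. There Spp1 was higher by 3.13 and 3.59, Itgax by 2.54 and 2.23, Cst7 by 2.09 and 1.90, and Gpnmb by 1.75 and 1.69. Spp1 and Gpnmb are also made by other cells, and Lgals3 by monocytes. Of the other microglia genes, 11 of 20 were higher in medulla in each experiment, 3 lower in AL and 1 in PBS, with Tyrobp (0.97 and 0.73) and Ctss (0.78 and 0.84) among the higher ones.

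Markers of other cells differed between these regions too. In cerebellum 6 of 8 tested monocyte and neutrophil markers were higher in AL and 7 of 8 in PBS, and 4 of 5 red blood cell markers were higher in each. The share of all genes called higher in cerebellum is not reported here. The 10 monocyte and neutrophil markers summed to 5.11 to 27.4 CPM in AL cerebellum and 14.9 to 73.2 CPM in PBS, against 0.338 to 1.3 CPM and 0.478 to 1.45 CPM in caudate putamen, where 2 and 3 of them were at 0 in every library. The 12 border macrophage markers summed to 14.7 to 23.1 CPM in AL cerebellum and 19.8 to 24 CPM in AL caudate putamen, and the 6 Kupffer cell markers to at most 0.796 CPM in the medulla of AL mice. In caudate putamen all 10 oligodendrocyte markers were higher in each experiment (medians 1.15 and 1.33), and of 10 neuron markers 8 were lower in AL and 7 in PBS. What part these cells have in the members' regional levels was not tested. In medulla, 10 of 10 oligodendrocyte and 10 of 10 endothelial markers were higher in each experiment. There 5 of 8 tested monocyte and neutrophil markers were higher in AL and 8 of 8 in PBS. These counts stood beside 62.3% (AL) and 56.7% (PBS) of all genes called in medulla in either direction. The part of these cells in the Aif1 and disease-associated values there was not tested either.

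In liver, whose resident macrophages are Kupffer cells, only Aif1 and Csf1r had AL libraries within the range of the brain libraries. Aif1 was at 8.88, 12.3, 36.1 and 14 CPM in the livers of AL mice and Csf1r at 47.4, 36.3, 76.7 and 53.8. Cx3cr1 was at 4.44, 3.14, 1.5 and 2.64 CPM, P2ry12 at 1.33, 2.05, 3.82 and 1.73, Tmem119 at 1.22, 0.682, 1.16 and 1.07 and Siglech at 0.444, 0.546, 0.166 and 0.165, the last from 1 to 4 counts per library. Against the mean of the 15 brain regions of AL mice (edgeR with TMM factors, which rescale libraries of unlike composition), Aif1 was higher by 1.79 on the log2 scale and Cx3cr1, P2ry12, Tmem119 and Siglech were lower, with differences of -3.47, -3.57, -4.07 and -4.70. These 5 of 6 calls stood beside 86.2% of all genes called in this comparison. Csf1r did not pass (0.02). These sizes depend on the scaling, because CPM is relative to the plain library total and the fit is not. With plain totals in the same edgeR test, an alternative added after the values were seen, Csf1r was called lower in liver, at -0.92 (adjusted p = 2.08e-11), Aif1 was higher by 0.87, and Cx3cr1, P2ry12, Tmem119 and Siglech differed by -4.42, -4.51, -5.02 and -5.62. The median over all genes moved from -0.28 to -1.22, and the calls over all genes from 6147 higher and 7539 lower to 3631 and 10460. The directions of the other 5 genes were the same under both scalings. With TMM factors Csf1r also moved with single mice, to 0.21 (adjusted p = 0.0497) without AL mouse 66 and -0.15 (adjusted p = 0.153) without AL mouse 68. The 6 Kupffer cell markers summed to 178 to 589.98 CPM in AL liver. In restricted against AL liver, 4 of the 6 genes passed the filter on low counts and 0 were called by edgeR, beside 0.220% of all genes, with log2 differences of -0.23 (P2ry12), -0.26 (Cx3cr1), -0.42 (Csf1r) and -0.81 (Aif1). Unadjusted p-values were 0.0867 or more.

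Dietary restriction was tested first over all brain regions, with 1 value per mouse and gene: the mouse term of a fit of log2 CPM on region and mouse, compared between groups with limma. Cx3cr1 was the member nearest to a call. Its mouse values were 0.11, 0.05, 0.09 and 0.04 in AL mice and -0.04, -0.06, -0.0017, -0.08 and -0.11 in aDR mice (log2 units around 0), so that every restricted mouse lay below every freely fed one. Of all genes, 4.14% had groups that did not overlap with the restricted mice lower. The difference was -0.13 (SE 0.0309, limma adjusted p = 0.0933), with an unadjusted p of 0.00204. It was thus not called, and over 17 alternatives its adjusted p ran from 0.00604 to 0.216 and its difference from -0.15 to -0.12. The lowest p came from DESeq2 on all libraries, which takes regions of a mouse as independent, and limma-voom with the mouse as a random block gave 0.0519.

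Aif1 had mouse values of 0.04, -0.02, 0.14 and 0.16 in AL and -0.16, -0.07, -0.08, -0.07 and 0.05 in aDR mice, with aDR mouse 67 above 2 of the AL mice, and a difference of -0.15 (SE 0.0507, limma adjusted p = 0.205). P2ry12, Siglech, Csf1r and Tmem119 differed by -0.05, -0.05, -0.03 and -0.03. Those differences are within the spread between mice, whose SDs ran from 0.034 to 0.16 log2 units. In sum 0 of 6 were called by limma, beside 0.922% of all genes, and 2 (Cx3cr1 and Aif1) had an unadjusted p under 0.05, as had 16.1% of all genes. DESeq2 on all libraries called 1 of 6, Cx3cr1, and 18.0% of all genes. All 6 differences were below 0, with a median of -0.05 against -0.01 for all genes. The 6 genes share the same mice, so their signs are not independent.

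**Figure D4:**
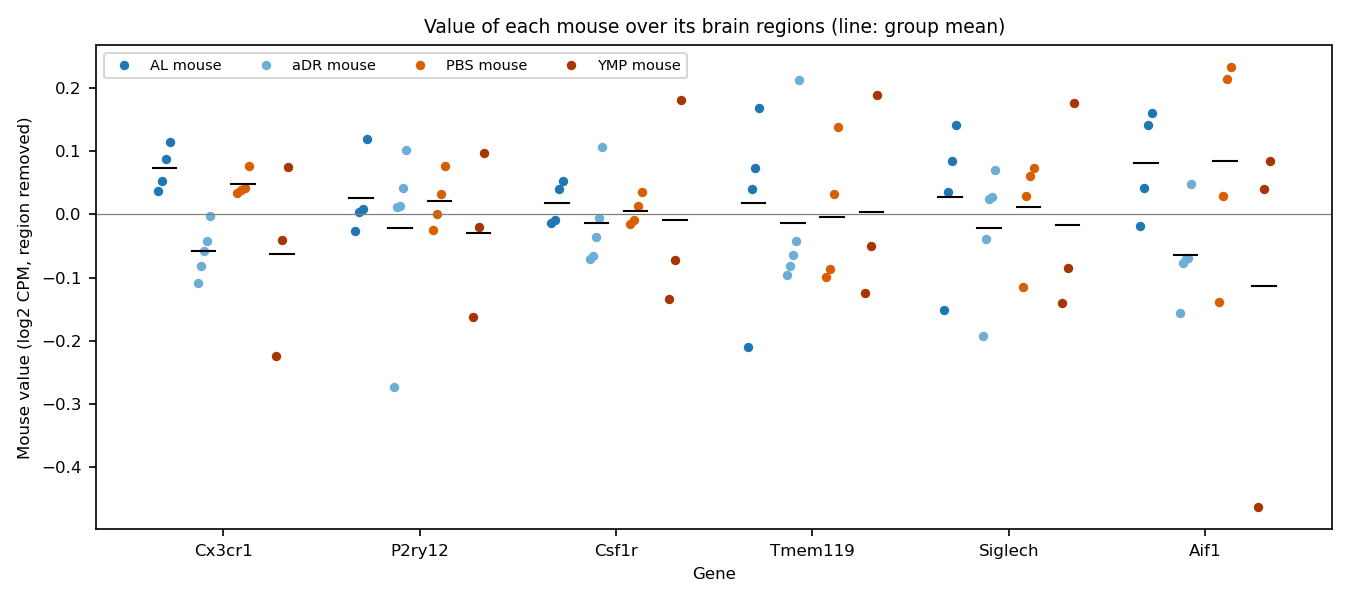
Value of each mouse over its brain regions (log2 CPM with region removed) for each gene, by treatment, with the group mean as a line. For Cx3cr1 the 5 aDR mice (-0.11 to -0.0017) lie below the 4 AL mice (0.04 to 0.11), and for the other genes the groups overlap.

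Other microglial genes were mostly on the same side. Of the 20 other microglia genes 18 were below 0 in the diet experiment, where the median of all genes was -0.01. They were measured in the same mice, so the count is not one of independent results. Of them only Fcrls, a scavenger receptor-like gene of microglia, was called (-0.44, SE 0.0618, limma adjusted p = 0.0211). No call was made among 5 ligands, 13 transcription factors and partners, 17 disease-associated genes or 10 border macrophage genes. Of 10 endothelial markers 4 were called lower in restricted mice, the junction gene Cldn5 (-0.48), the angiopoietin receptor gene Tek (-0.37), Emcn (-0.35) and the VEGF receptor gene Flt1 (-0.26), with a list median of -0.26. The 5 red blood cell markers were all above 0 (median 0.93) and so were the 9 tested monocyte and neutrophil markers (0.24), with 0 called in either list. Their part, and that of endothelium, in the Cx3cr1 values was not tested.

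Within single regions, restricted and AL mice were compared with edgeR in a fit per region. Of 90 gene by region tests 0 were called, beside 0.0525% of all gene by region tests. By DESeq2 the number was also 0, beside 0.255%. An unadjusted p was under 0.05 in 8 of the 90, 7 of them lower in aDR, against 6.24% of tests over all genes. Cx3cr1 was below 0 in 14 of 15 regions and Aif1 in 12, while Csf1r was below 0 in 10, P2ry12 and Siglech in 9 and Tmem119 in 7. The regions share the same 9 mice, so these counts are not independent.

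The smallest unadjusted p-values of the 6 genes fell in motor cortex, olfactory bulb, thalamus and cerebellum. In motor cortex Tmem119 was at 36.1, 27.6, 37.6 and 36.7 CPM in AL mice and 26.9, 25.1, 31.4, 27.3 and 29 in aDR mice, a log2 difference of -0.31 (SE 0.0884, unadjusted p = 0.00285, adjusted p = 0.216, edgeR). The lowest AL mouse lay among the restricted mice. Olfml3 (-0.49), a microglia gene, Lpl (-0.60), a lipase of the disease-associated list, and Cx3cl1 (-0.25) were called lower in the same region, where 0.251% of all genes were called. In olfactory bulb Aif1 was at 8.48, 10.1, 7.47 and 7.56 CPM in AL and 6.01, 6.29, 5.14, 5.45 and 7.13 in aDR mice, which did not overlap, with a difference of -0.48 (SE 0.146, unadjusted p = 0.0059, adjusted p = 0.211, edgeR), beside 0.220% of all genes called there. In thalamus Cx3cr1 was at 58.4, 60.1, 55.9 and 53.1 CPM in AL and 47.9, 47, 48.6, 39.9 and 53.4 in aDR mice, a difference of -0.24 (SE 0.081, unadjusted p = 0.0123, adjusted p = 0.99, edgeR). The smallest p of Csf1r was in cerebellum (-0.15, unadjusted p = 0.0916), that of P2ry12 in motor cortex (-0.17, 0.0619) and that of Siglech in olfactory bulb (-0.20, 0.0341). Groups did not overlap in 2 of the 90 tests (2.22%), Aif1 in olfactory bulb and Cx3cr1 in motor cortex, both lower, the latter named after its values were seen. Over all genes the share was 3.12%.

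An F test in edgeR asked whether the diet difference itself varied from region to region. It called 0 of 6 genes, beside 0.0128% of all genes, with unadjusted p-values of 0.655 (Aif1) and above.

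In the plasma experiment 0 of 6 genes were called over all regions by limma, beside 0% of all genes. An unadjusted p was under 0.05 for 0 of 6, against 8.09% of all genes, and DESeq2 on all libraries called 0 of 6, against 14.4%. Cx3cr1 had mouse values of 0.04, 0.03, 0.08 and 0.04 in PBS mice and -0.04, 0.07 and -0.22 in YMP mice, a difference of -0.11 (SE 0.0704, limma adjusted p = 0.714). The 4 PBS mice were close together, 2 of the 3 YMP mice lay below them all and YMP mouse 77 lay among them. For Aif1 the values were 0.22, 0.03, 0.23 and -0.14 and -0.46, 0.08 and 0.04, a difference of -0.20 (SE 0.154, limma adjusted p = 0.773). The lowest of them, YMP mouse 73, is the mouse of the smallest library, and without it the difference was -0.01 (adjusted p = 0.994). Without the libraries that stood apart in depth or in their most abundant genes it was -0.08 (adjusted p = 0.852). P2ry12, Siglech, Csf1r and Tmem119 differed by -0.05, -0.03, -0.01 and 0.0081, less than the SDs of the 3 YMP mice (0.13 to 0.17).

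For every gene YMP mouse 77 had the highest value of its group. Of 20 other microglia genes 18 were below 0 and 0 were called, and of 17 disease-associated genes 16 were below 0 (median -0.20 against -0.0037 for all genes) and 0 were called. All 12 choroid plexus markers were below 0 as well (median -1.18) and 0 were called. Genes of a list were measured in the same mice, so these counts are not independent.

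Within regions 0 of 90 tests were called by edgeR, beside 0.0127% over all genes, and 1 by DESeq2, beside 0.461%. An unadjusted p was under 0.05 in 13 of the 90, 9 of them lower in YMP, against 6.11% over all genes. The 90 tests share libraries and mice and are not independent. Medulla held the smallest p of 4 of the 6 genes. Csf1r was at 108, 98.8, 106 and 114 CPM in the medulla of PBS mice and 75.4, 83.7 and 71.8 in that of YMP mice, without overlap. The difference was -0.49 (SE 0.0838, unadjusted p = 1.53e-04, adjusted p = 0.438, edgeR), and DESeq2, which called 0.130% of all genes in medulla, gave -0.49 with an adjusted p of 0.0038. Over 10 alternatives its adjusted p ran from 0.0038 to 0.992 and its difference from -0.54 to -0.44.

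Cx3cr1 was at 63.5, 52.4, 67.6 and 86.2 CPM in PBS and 46, 50.1 and 41.4 in YMP medulla, again without overlap, a difference of -0.58 (SE 0.15, unadjusted p = 0.00284, adjusted p = 0.438, edgeR). Tmem119 was at 32.6, 28.6, 36.8 and 29.8 CPM and 24.5, 27.4 and 23.2 in the same libraries, also without overlap, a difference of -0.37 (SE 0.116, unadjusted p = 0.00898, adjusted p = 0.447, edgeR). Siglech differed by -0.26 (SE 0.151, unadjusted p = 0.118, adjusted p = 0.619, edgeR), with overlapping mice. The 10 oligodendrocyte markers summed to 26754 to 32058 CPM in PBS and 21850 to 27255 CPM in YMP medulla, and the 12 border macrophage markers to 13.3 to 30.4 CPM and 14 to 16.6 CPM. Their part in the medulla values was not tested. Outside medulla, P2ry12 had its smallest p in olfactory bulb (-0.23, unadjusted p = 0.0137), where 1 YMP library was the smallest of all, and Aif1 in entorhinal cortex (-0.48, 0.0614).

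Corpus callosum and cerebellum lay on the other side. Groups did not overlap in 14 of the 90 plasma tests (15.6%), against 9.23% over all genes, 9 with YMP lower and 5 with YMP higher. The 5 were Csf1r, Cx3cr1, P2ry12 and Tmem119 in corpus callosum and P2ry12 in cerebellum, named after their values were seen. Genes of a region share the same libraries, so the 15.6% does not count independent cases. In corpus callosum, with 2 YMP and 3 PBS libraries, Csf1r was at 160.2 and 151 CPM in YMP and 122, 114 and 118 in PBS, a log2 difference of 0.39 (adjusted p = 0.418, edgeR). Tmem119 was at 62.5 and 56 CPM in YMP and 46.3, 46.5 and 38.6 CPM in PBS, a difference of 0.42 (adjusted p = 0.464, edgeR). The choroid plexus markers summed to 579 to 650.1 CPM in these YMP libraries and 7848 to 30106 CPM in the PBS libraries. The oligodendrocyte markers summed to 33282 to 33942 CPM and 21985 to 25717 CPM. Their part in the corpus callosum values was not tested.

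**Figure D5:**
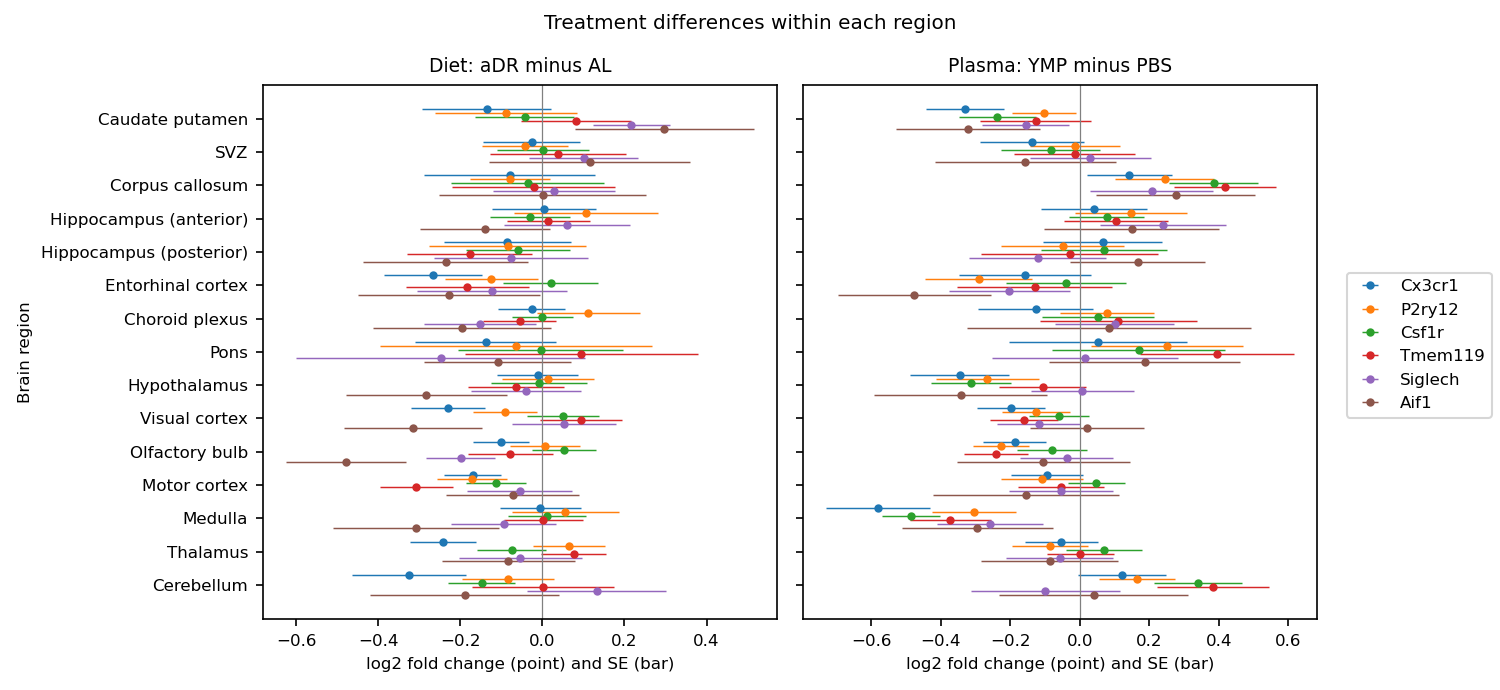
Log2 fold change of treated against control mice (horizontal axis) with its standard error for each gene in each brain region (rows), for diet (left) and plasma (right), from edgeR. None of the 90 tests in either panel was called; the lowest values are those of Cx3cr1 (-0.58) and Csf1r (-0.49) in medulla in the plasma experiment.

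The plasma difference varied between regions for 0.824% of all genes and for 0 of the 6 by the same F test. Csf1r had the smallest p (unadjusted p = 0.0227, adjusted p = 0.468), and P2ry12 followed (0.0958, 0.814). The difference between the plasma and the diet difference was tested with limma on the mouse values. It called 0 of 6 genes, beside 0.174% of all genes, with unadjusted p-values of 0.744 (Aif1) or above, so that no difference between the experiments was detectable with 16 mice. The values ran from -0.05 (Aif1) to 0.04 (Tmem119) on the log2 scale, with standard errors from 0.071 to 0.16.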

How the data were processed

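The values were deposited by the authors as raw read counts per gene for 238 libraries, 1 column each. Per the labels' protocols, RNA was purified on RNeasy columns and libraries were made with Smart-Seq2 and Nextera XT, which keep no strand. Per the submitters' processing notes, Trim Galore 0.3.7, STAR 2.5.3a, DESeq2 and GRCm38 were used; the counting program and annotation are not given in the sources used here. The table has 21076 gene rows, 537 of them without a count.

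From the counts, CPM was computed as counts per M counts of the plain library total. Within regions, between regions and for liver, edgeR 4.0.16 (R 4.3.3) quasi-likelihood fits with TMM factors and filterByExpr (minimum count 10, total 15) were used. Over all regions, log2 CPM (prior count 2) was fitted on region and mouse, and the mouse terms were compared with limma 3.58.1. Whether a treatment difference varied by region was asked with an F test on the interaction terms in edgeR. P-values were adjusted by Benjamini-Hochberg over all genes of a fit, with a threshold of 0.05. DESeq2 1.42.0, limma-voom, RLE factors, no filter, a prior count of 0.5, plain library totals for liver and leaving out mice, regions or libraries were alternatives. Library totals of 0.606 to 32.4 M counts limit genes of few reads most, and floors cover counting error only. The fits on brain libraries were also run on simulated counts with 200 changed genes. The simulation held no effect of the mouse, so it could not test how the fits treat libraries of the same animal. The liver comparison was not evaluated on it.

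Libraries of a mouse share the animal. Deviations of libraries from their group means had a mean correlation of 0.0400 within a diet mouse and 0.0717 within a plasma mouse, against -0.0049 and -0.012 between mice. None of 357 replicate pairs agreed within sampling noise (lowest chi-square per degree of freedom 1.29). The 6 genes, the gene lists and the tests were chosen with earlier results of these data known. The genes were always named. Regional differences were named where called with the same sign in AL and PBS, treatment differences where called or at the gene's smallest p, and list genes where called; exceptions are marked in the text. Some list genes are in the counts but are not reported here by name. Promoter sequences are from RefSeq (GRCm38.p6), gene positions from GENCODE vM21.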

Additional observations from a re-analysis of the deposited data

Results flagged for a closer look

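Within groups of 4 or 5 mice, 7 of 48 tested groups of values had 1 mouse apart from the rest by Dixon's gap test at 95%. Chance gives about 2.4. The 48 did not include every gene in every region, so the mice named below are not a full list. P2ry12 in the pons of aDR mice was not among them, with 9.56 CPM in mouse 67 against 38.5 to 44.8 in the other 4.

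Over all brain regions, PBS mouse 80 had the highest Cx3cr1 mouse value, 0.0767, against 0.0342 to 0.0412 in the other 3. P2ry12 was at -0.273 in aDR mouse 67 against 0.0114 to 0.102 in the other 4; this mouse gave the pons library with 23.4% of its counts in 10 genes. Tmem119 was at 0.214 in aDR mouse 64 against -0.0957 to -0.0423 in the other 4.

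In caudate putamen, Cx3cr1 was at 57.0 CPM in aDR mouse 64 against 91.9 to 104 in the other 4, and P2ry12 at 36.5 CPM in the same library against 74.5 to 85.1. Siglech was at 25.5 CPM in AL mouse 69 against 21.0 to 21.8 in the other 3, and Tmem119 at 55.2 CPM in the same library against 42.9 to 44.2.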

How the results depend on the processing

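The 29 regional differences called in both experiments each had a value in AL and a value in PBS, 58 values in all. Of these 58 values, 36 kept their call under every alternative run and 22 lost it when 1 mouse was left out. A difference could thus lose its call in only 1 of the experiments. Of the 58 values, 0 changed sign. The number of regional calls among 90 tests ran from 27 to 39 in AL and 23 to 42 in PBS with 1 mouse left out, and was 45 and 38 with the mouse as a replicate block. Liver calls ran from 5 to 6. Calls within regions, over regions, for their difference and by region stayed at 0 to 0 with 1 mouse left out. With the mouse as a replicate block they were 0 over regions and by region; the block was not run within regions, where a mouse has 1 library, nor for the difference between experiments. Without the choroid plexus libraries the regional calls were 40 and 36. DESeq2 called 1 within plasma regions (0.461% of all tests), and DESeq2 without a replicate block called 1 over regions for diet (18.0% of all genes).

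Small differences changed sign: over regions for diet, P2ry12 without 1 mouse ran from -0.0776 to 0.0168 and Tmem119 from -0.108 to 0.0165. For plasma, P2ry12 ran from -0.111 to 0.0140, Csf1r from -0.108 to 0.0463, Siglech from -0.125 to 0.0332 and Tmem119 from -0.0843 to 0.0746. Tmem119 also changed sign without corpus callosum (-0.0160), without the libraries that stand apart (-0.00671), and with limma-voom and a replicate block (-0.0190). Csf1r in liver ran from -0.153 to 0.214 without 1 mouse and was -0.920 with plain library totals. The cause was not tested.

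Counts over all genes moved more: for diet over regions 144 against 14 to 163 with 1 mouse left out, and for plasma by region 130 against 10 without corpus callosum. Depth limits Aif1 and Siglech most.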

Other observations

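Other microglial genes differed between liver and brain in both directions. Of 20 other microglia genes, 10 were higher in AL liver and 10 lower (edgeR), with Fcrls (-10.73) and Gpr34 (-5.67) among the lower ones on the log2 scale. All 6 Kupffer cell markers were higher (median 11.39), as were 9 of 12 border macrophage markers, with 3 lower. Cx3cl1 was lower in liver (-7.63).

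In corpus callosum, 16 of 20 other microglia genes were called higher in AL and 13 in PBS, and 0 lower in either. Of 17 disease-associated genes 10 and 8 were higher and 2 and 2 lower. All 12 choroid plexus markers (medians 5.204 and 6.03) and all 10 oligodendrocyte markers (1.59 and 1.353) were higher there too. In SVZ, 15 of the 20 other microglia genes were higher in each experiment and 0 lower.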
